A study of Homo sapiens with 18 samples.

Results

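LINC00339 and 8 long noncoding RNAs that are often studied (MALAT1, NEAT1, GAS5, MEG3, H19, PVT1, TUG1 and MIR22HG) were followed in U87, an established human glioblastoma line. The 9 genes were taken by name from the 60675 gene IDs of the deposited tables, 14814 of which are long noncoding genes in the annotation used here. LINC00339 was selected on its own TPM values in these libraries, which were higher with rexinoids than with ethanol in earlier results. Its levels against ethanol are therefore a description with no test. The others were taken for their names, and their differences were tested.

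Cells were treated for 24 h with 100 nM of bexarotene or of one of 4 coded rexinoids (A34, A41, A80 and A98), or with ethanol, the vehicle. All groups were the same unmodified line in culture, with 3 libraries each and 18 in all. Bexarotene and ethanol were the controls named by the submitters. The names of the tables given for A98 hold another code, A90, and the sample labels were followed here. The labels do not state whether replicates were separate cultures, and p-values cover the spread of the libraries alone, which may be technical. The structures of the coded compounds are not used here.

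A rexinoid binds retinoid X receptors, nuclear receptors that sit on DNA together with the retinoic acid receptors, the liver X receptors and other partners. Long noncoding RNAs are transcripts without a long reading frame. Some stay in the nucleus and hold nuclear bodies together, as NEAT1 does in paraspeckles, some carry small RNAs in their introns or exons, as GAS5 and MIR22HG do, and some come from imprinted loci, as MEG3 and H19 do. The libraries were made from total RNA depleted of ribosomal RNA, so transcripts with and without a poly(A) tail could be captured.

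The libraries held 1.31 to 3.89 gigabases of aligned sequence. Ribosomal RNA held 0.349% to 4.35% of TPM in 15 libraries, but 44.9% in bexarotene replicate 1, 56.1% in A41 replicate 2 and 35.5% in ethanol replicate 2. TPM, the share of each gene among the transcripts of a library, was therefore divided by 1 factor per library, which gives the scaled TPM. Of 6 leukocyte and microglia markers, 0 averaged 1 scaled TPM or more. Of 11 astroglial and glioma markers 7 did, with VIM, CD44 and FN1 among them, whereas GFAP, S100B, AQP4 and SOX2 did not. Of 6 neuronal markers 5 did as well, with ENO2 and TUBB3 among them, whereas RBFOX3 did not.

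The 9 genes covered a wide range of levels, and the word abundant holds for only some of them. MALAT1 averaged 708 scaled TPM over the 18 libraries and was the fourth of the 14814 long noncoding genes by mean level. GAS5 followed with a mean of 66.1 scaled TPM at rank 26, NEAT1 with 63.1 at rank 27, TUG1 with 21.8 at rank 66, PVT1 with 19.4 at rank 73 and MIR22HG with 15.8 at rank 98. LINC00339 averaged 8.36 scaled TPM, at rank 200. MEG3 averaged 2.40 scaled TPM, at rank 672. H19 was listed at 0 in 3 libraries and reached 1 TPM as deposited in 1 of 18, so it was not tested. The other 8 genes passed the filter of at least 1 TPM in at least 3 libraries.

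LINC00339 (ENSG00000218510) lies on the plus strand of chromosome 1, at 22024558 to 22031223 on GRCh38, with 13 transcripts of 338 to 1518 bases in GENCODE release 29. It overlaps the start of CDC42, a small GTPase that regulates the actin cytoskeleton, which is on the same strand from 22025511 to 22101360. On the opposite strand it overlaps CDC42-AS1 and LINC01635. The window below, from RefSeq on GRCh38.p14, runs from 250 bases before to 50 bases after an annotated start, at chr1:22025254-22025553 on the plus strand. It is shown because 10 of the 13 LINC00339 transcripts in release 29 start in it, and the listed start of CDC42 also falls in it.
LINC00339 start window: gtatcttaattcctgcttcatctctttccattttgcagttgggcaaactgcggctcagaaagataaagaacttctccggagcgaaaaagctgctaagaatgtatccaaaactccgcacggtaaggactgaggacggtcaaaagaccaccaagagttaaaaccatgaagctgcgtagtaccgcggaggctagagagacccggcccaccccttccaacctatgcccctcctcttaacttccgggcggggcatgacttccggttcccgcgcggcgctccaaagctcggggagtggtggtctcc
No base is in capitals because AGGTCA, the core motif of many nuclear receptors, was not found on either strand, here or in the second RefSeq window of the gene. Of 35116 RefSeq windows of the same length, 13.8% hold it. The absence says only that these letters are not in these windows.

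LINC00339 was higher in every one of the 15 rexinoid libraries than in any ethanol library. It had 9.85, 9.30 and 8.98 scaled TPM in bexarotene cells, 8.80, 9.39 and 10.97 in A34 cells, and 8.86, 7.19 and 6.49 in A41 cells. It had 10.82, 8.81 and 10.61 scaled TPM in A80 cells and 8.09, 8.26 and 8.51 in A98 cells, against 5.65, 5.10 and 4.81 in ethanol cells. The lowest rexinoid library, A41 replicate 3, stood above the highest ethanol library, replicate 1. Over all genes, the 3 libraries of a rexinoid all lay above ethanol in 6.88% for bexarotene, 8.22% for A34, 8.27% for A41, 8.6% for A80 and 8.49% for A98, shares given beside a gene that this contrast chose.

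The order of the group means was A80, A34, bexarotene, A98, A41 and ethanol. The means were 10.1 ± 1.10 scaled TPM in A80, 9.72 ± 1.12 in A34, 9.38 ± 0.443 in bexarotene, 8.29 ± 0.210 in A98 and 7.51 ± 1.22 in A41, against 5.19 ± 0.425 in ethanol (SD, n = 3 each). The ratio to the ethanol mean ranged from 1.45 with A41 to 1.94 with A80. On the log2(scaled TPM + 1) scale the differences from ethanol were 0.75 in bexarotene, 0.79 in A34, 0.45 in A41, 0.84 in A80 and 0.59 in A98, each with a standard error of 0.12. These 5 differences share the same 3 ethanol libraries.

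**Figure D1:**
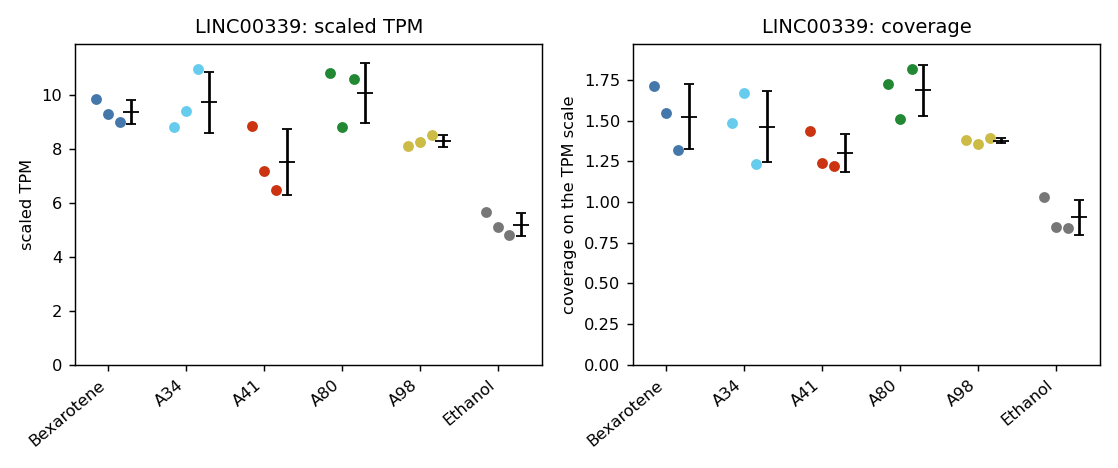
LINC00339 in the 18 libraries, as scaled TPM on the left and as coverage put on the TPM scale on the right. Points are libraries, and the black marks are the group mean with the SD of 3 libraries. The 15 rexinoid libraries lie at 6.49 scaled TPM or above and the 3 ethanol libraries at 5.65 or below.

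The deposited coverage of the whole gene, which does not depend on how reads were shared among its transcripts, gave the same separation. It may still take in reads of CDC42, which overlaps LINC00339 on the same strand at a mean of 68.0 scaled TPM. How far it does was not tested. Coverage put on the TPM scale was 1.22 to 1.82 in the 15 rexinoid libraries, against 0.839 to 1.03 in ethanol. One library stood out in the ratio of the measures. In A34 replicate 3 TPM was 8.91 times the coverage, against a median of 5.89 over all libraries, and the difference between A34 and ethanol was 0.63 from coverage, against 0.79 from TPM.

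Among the rexinoids LINC00339 was lowest with A41, but no difference between compounds passed after adjustment over all genes. A41 was below A80 by a log2 difference of -0.38 (95% interval -0.63 to -0.14, unadjusted p = 0.00434, adjusted p = 0.333). A34 was above A41 by 0.34 (interval 0.09 to 0.58, adjusted p = 0.486), a value of 0.15 from coverage. A41 was below bexarotene by -0.29 (interval -0.54 to -0.05, adjusted p = 0.697). The 3 A41 libraries lay below all 3 bexarotene libraries, as did those of 4.35% of all genes. From coverage these groups overlapped, with a log2 difference of -0.21 (adjusted p = 0.932 in limma). A41 replicate 1, at 8.86 scaled TPM, was above A80 replicate 2, at 8.81. The 3 A98 libraries lay below all bexarotene, A34 and A80 libraries, as did those of 7.99%, 5.22% and 5.33% of all genes in that order. From coverage A98 overlapped bexarotene and A34 and lay below A80. The differences of A34 and of A80 from bexarotene were 0.04 (interval -0.20 to 0.29) and 0.09 (interval -0.15 to 0.33). The F test for any difference among the 5 rexinoids gave an unadjusted p of 0.0238 and an adjusted p of 0.716 for LINC00339.

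Known rexinoid-responsive genes had another order of compounds. DHRS3, a retinaldehyde reductase, and CYP26B1, which degrades retinoic acid, were highest with A41, at log2 differences from ethanol of 2.13 and 3.59. In A41 against A80, where LINC00339 had a log2 difference of -0.38, DHRS3 was higher with A41 by 1.16 (adjusted p = 1.22e-05) and CYP26B1 by 2.06 (adjusted p = 0.0002). For ABCA1, a cholesterol exporter, and SCD, a fatty acid desaturase, A41 against A80 gave log2 differences of 0.50 and 0.67 that did not pass (adjusted p = 0.162 and 0.153). Whether these genes differ from LINC00339 in their order was not tested.

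**Figure D2:**
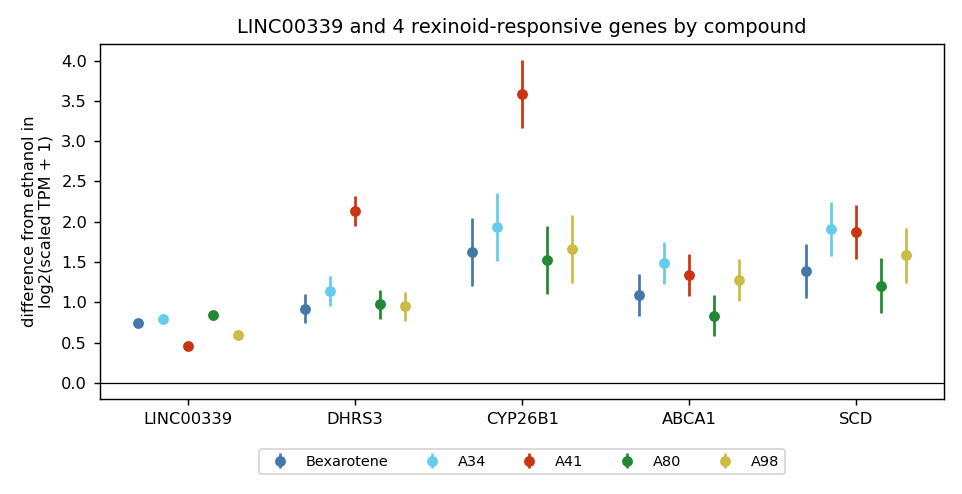
Difference from ethanol in log2(scaled TPM + 1) for LINC00339 and 4 genes known to respond to rexinoids, by compound. Lines are 95% intervals and none is drawn for LINC00339. A41 gives the lowest value for LINC00339, at 0.45, and the highest for DHRS3 and CYP26B1, at 2.13 and 3.59.

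CDC42, which overlaps LINC00339, varied more between libraries, and its group means were not all on one side of ethanol. It averaged 64.3 ± 36.0 scaled TPM in bexarotene, 79.8 ± 26.6 in A34, 72.0 ± 27.9 in A41, 79.97 ± 30.02 in A80 and 41.6 ± 12.5 in A98, against 70.6 ± 19.3 in ethanol (SD, n = 3 each). Its log2 differences from ethanol ranged from -0.75 with A98 to 0.15 with A34, and 0 of 5 passed, with a lowest adjusted p of 0.783. CDC42-AS1, on the opposite strand, averaged 0.410 to 0.630 scaled TPM in the rexinoid groups and 1.29 in ethanol, with log2 differences of -0.68 to -0.49 and a lowest adjusted p of 0.363. The sources used here do not give the handling of strand, so reads of LINC00339 and of its antisense neighbours cannot be told apart with certainty. Reads from the stretch that LINC00339 shares with CDC42 on the same strand cannot be assigned with certainty either.

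The genes whose levels followed LINC00339 most closely over the 18 libraries were METTL26 (Pearson's r = 0.81), PGM1, a phosphoglucomutase (0.77), TLE5, a transcriptional corepressor (0.77), HDDC2 (0.77) and SPAG4 (0.75), out of 13023 genes compared. These values are a description over libraries that share groups and depth. They take in the contrast with ethanol that selected LINC00339, so a gene low in ethanol can rank high. SPAG4 averaged 20.1 in bexarotene, 29.3 in A34, 20.2 in A41, 33.7 in A80 and 20.5 in A98, against 10.9 scaled TPM in ethanol. The gap was smaller for HDDC2, which averaged from 32.6 in A41 to 38.5 in A80, against 30.8 in ethanol.

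None of the other 7 measured genes differed from ethanol past the threshold. In limma with Benjamini-Hochberg adjustment over 18269 genes, 0 of 7 passed for each of the 5 rexinoids, that is 0 of 35 tests. The share of all genes that passed was 0.0547% for bexarotene, 0.0821% for A34, 0.755% for A41, 0.0438% for A80 and 0.0328% for A98, so a count of 0 among 7 is near the background. An unadjusted p under 0.05 was found in 2 of 35 tests, both for NEAT1, with bexarotene and with A41. Over all genes 5.75% had such a p for bexarotene, 10.7% for A34, 10.4% for A41, 9.41% for A80 and 6.63% for A98. For the mean of the 5 rexinoids against ethanol 0 of 7 passed, against 0.203% of all genes, and 0 of 7 had an unadjusted p under 0.05, against 10.3%.

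**Figure D3:**
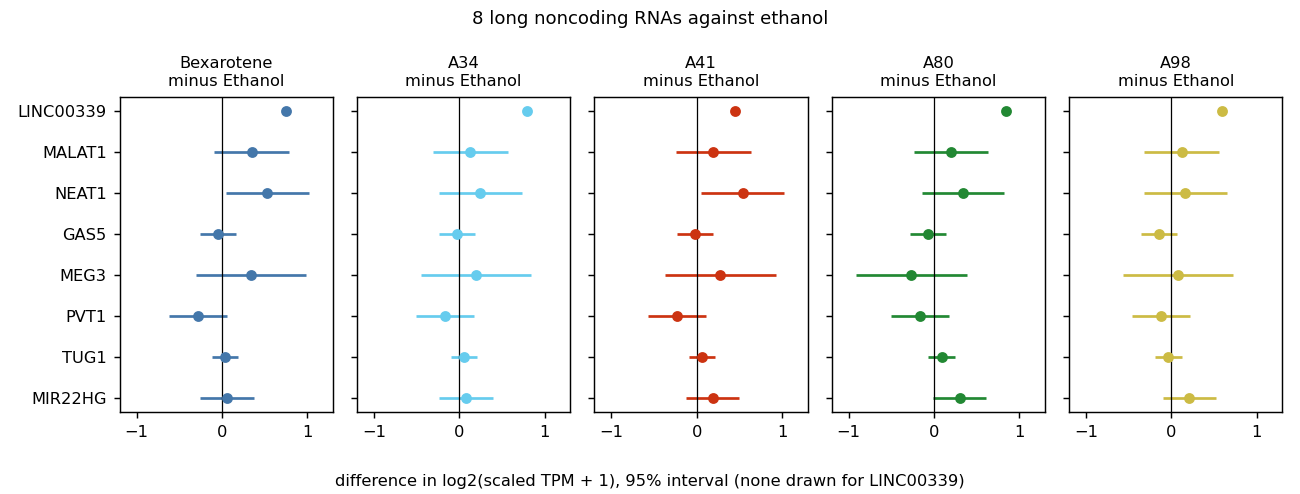
Difference from ethanol in log2(scaled TPM + 1) for 8 long noncoding RNAs in the 5 rexinoid groups, with 95% intervals from limma (none is drawn for LINC00339). TUG1 and GAS5 have the narrowest intervals and MEG3 the widest, and NEAT1 leaves 0 outside its interval with bexarotene and A41 before adjustment.

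MALAT1 (chromosome 11, 65497688 to 65506516, plus strand), a nuclear RNA enriched in speckles that hold splicing factors, was the most abundant of the 9. It had 742, 798 and 844 scaled TPM in bexarotene cells, 793, 824 and 482 in A34 cells, and 654, 675 and 821 in A41 cells. It had 717, 674 and 755 scaled TPM in A80 cells and 776, 675 and 595 in A98 cells, against 445, 781 and 697 in ethanol cells. The low libraries were ethanol replicate 1 and A34 replicate 3, and every rexinoid group overlapped ethanol. The log2 differences from ethanol ranged from 0.12 with A98 to 0.35 with bexarotene, and the lowest adjusted p was 0.787. Without ethanol replicate 1 they were 0.11 in bexarotene, -0.12 in A34, -0.05 in A41, -0.05 in A80 and -0.12 in A98, so 4 of the 5 had the opposite sign. The intervals together ran from -0.32 to 0.78.

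NEAT1 (chromosome 11, 65422774 to 65445540, plus strand), the RNA on which paraspeckles are built, had 72.8, 66.4 and 78.3 scaled TPM in bexarotene cells and 57.1, 77.4 and 87.1 in A41 cells, against 36.4, 58.7 and 57.7 in ethanol cells. It had 67.2, 75.9 and 40.8 scaled TPM in A34 cells, 59.7, 58.5 and 72.5 in A80 cells and 68.9, 53.2 and 47.3 in A98 cells. All 3 bexarotene libraries were above all 3 ethanol libraries, as were those of 6.88% of all genes, while A41 replicate 1 fell within the ethanol range. The log2 difference from ethanol was 0.53 with bexarotene (interval 0.05 to 1.01, unadjusted p = 0.034, adjusted p = 0.837) and 0.54 with A41 (interval 0.05 to 1.02, unadjusted p = 0.0319, adjusted p = 0.42). Without ethanol replicate 1 these differences were 0.31 and 0.32. The log2 differences from ethanol with A34, A80 and A98 were 0.25, 0.34 and 0.16, and these groups overlapped ethanol. Without ethanol replicate 1 those values were 0.03, 0.12 and -0.06.

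MALAT1 and NEAT1 are 52.1 kb apart on chromosome 11, and their levels went together over the libraries, also within groups. Over the 18 libraries Pearson's r of log2(scaled TPM + 1) was 0.895 (permutation p = 2e-05, adjusted p = 0.00056 over 28 pairs of the 8 genes) and Spearman's rho was 0.812 (permutation p = 5e-05, adjusted p = 0.0014). Without ethanol replicate 1 and A34 replicate 3, the libraries farthest from the median of MALAT1, r was 0.748. The deviations from the group means gave r = 0.926, and the 15 libraries with little ribosomal RNA gave 0.961. Of the other 27 pairs 0 passed, and the lowest adjusted p of a Pearson r among them was 0.68. Deviations from the group means were tested for no pair. Among the other pairs their r reached 0.671 for PVT1 with TUG1 and -0.657 for LINC00339 with NEAT1.

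**Figure D4:**
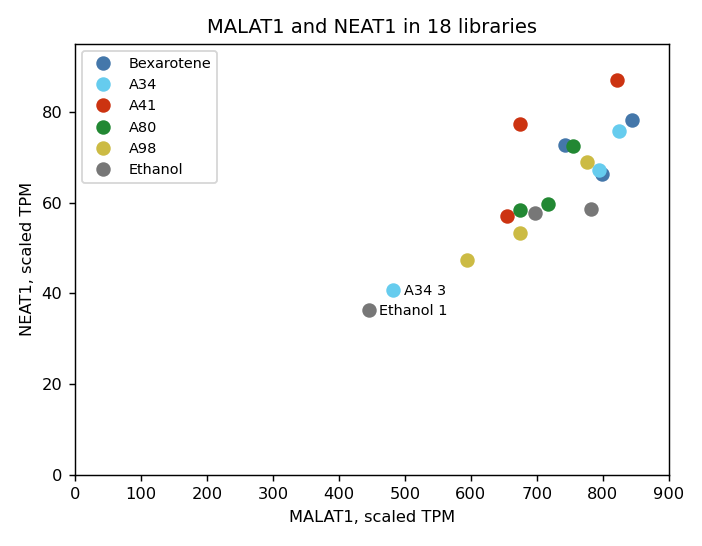
NEAT1 against MALAT1 in scaled TPM, with 1 point per library coloured by group. Ethanol replicate 1, at 445 and 36.4 scaled TPM, and A34 replicate 3, at 482 and 40.8, are the lowest in both, and libraries of all groups mix along the rest of the range.

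Protein genes beside MALAT1 did pass with A41. Within 100 kb of MALAT1, 11 genes were tested. LTBP3, which binds latent TGF-beta, FAM89B and EHBP1L1 passed in A41 against ethanol, that is 3 of 11, against 0.755% of all genes. Within 100 kb of NEAT1, 1 of 9 tested genes, LTBP3, passed in the same comparison. LTBP3, 32.0 kb from MALAT1, averaged 155 ± 17.1 scaled TPM with A41 and 63.1 ± 3.48 with ethanol (SD, n = 3 each, log2 difference 1.28, adjusted p = 0.0001). FAM89B averaged 41.5 ± 0.604 with A41 and 20.8 ± 2.49 with ethanol (0.97, adjusted p = 2.71e-05), and EHBP1L1 averaged 72.7 ± 8.50 with A41 and 50.9 ± 6.07 with ethanol (0.51, adjusted p = 0.0268). MALAT1 itself had a log2 difference of 0.19 in the same comparison (interval -0.24 to 0.63). With the other rexinoids the differences from ethanol were 0.42 to 0.61 for LTBP3, 0.39 to 0.44 for FAM89B and 0.15 to 0.30 for EHBP1L1, and none passed. For the mean of the 5 rexinoids, which takes in A41, LTBP3 and FAM89B passed (adjusted p = 0.0103 and 0.00219 in limma), against 0.203% of all genes. Near the other 7 genes, 0 tested neighbours passed with any rexinoid against ethanol.

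GAS5 (chromosome 1, 173858559 to 173868882, minus strand), a host of small nucleolar RNAs that was named for its rise in growth-arrested cells, had 71.4, 66.8 and 60.1 scaled TPM in bexarotene cells, 64.2, 66.3 and 71.2 in A34 cells and 69.1, 74.7 and 59.2 in A41 cells. It had 69.4, 68.8 and 57.5 scaled TPM in A80 cells and 65.9, 55.8 and 63.9 in A98 cells, against 68.0, 65.7 and 71.4 in ethanol cells. In scaled TPM every rexinoid group overlapped ethanol. Its log2 differences from ethanol ranged from -0.15 with A98 to -0.02 with A41, and the intervals together ran from -0.36 to 0.19. The lowest adjusted p was 0.838. From coverage put on the TPM scale, GAS5 had 12.1 to 13.5 in A34, 12.7 to 13.9 in A80 and 12.1 to 12.8 in A98, against 14.5 to 15.1 in ethanol, while bexarotene and A41 overlapped ethanol. These 3 groups lay wholly below ethanol in coverage, as did those of 9.07% of all genes for A34, 8.6% for A80 and 8.17% for A98. The log2 differences from coverage were -0.19, -0.14 and -0.25 in that order, and they did not pass (adjusted p = 0.363, 0.568 and 0.56 in limma). Exons cover 35.2% of the span of GAS5, and TPM was 4.70 times the coverage at the median, so its coverage averages over introns as well. GAS5 overlaps genes on the opposite strand, GAS5-AS1 among them, so the counting could split reads between them.

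MIR22HG (chromosome 17, 1711493 to 1717174, minus strand) is the host of miR-22, whose mature arms are shown with the seed, bases 2 to 8, in capitals, because the host RNA and not these arms was measured (RefSeq, GRCh38.p14).
hsa-miR-22-3p: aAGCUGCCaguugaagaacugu
hsa-miR-22-5p: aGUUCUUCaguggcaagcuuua
MIR22HG had 16.4, 15.8 and 16.5 scaled TPM in A41 cells, 16.5, 16.1 and 16.9 in A98 cells and 16.5, 23.6 and 14.0 in A80 cells, with 14.5, 15.6 and 14.2 in bexarotene cells and 18.02, 13.8 and 13.5 in A34 cells, against 12.3, 14.8 and 15.5 in ethanol cells. The A41 and the A98 libraries were all above ethanol, as were those of 8.27% and 8.49% of all genes in these comparisons. The log2 differences from ethanol were 0.19 with A41 (adjusted p = 0.699), 0.21 with A98 (adjusted p = 0.843) and 0.30 with A80 (adjusted p = 0.54). Without ethanol replicate 1 the A41 and A98 values were 0.09 and 0.12, and without A80 replicate 2 the A80 value was 0.10.

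The measures of MIR22HG moved apart. In A80 replicate 2 TPM was 2.50 times the coverage, against a median of 1.48, and over the 18 libraries log2 TPM and log2 coverage had a Pearson's r of 0.283, against 0.892 for LINC00339 and 0.999 for MALAT1. From coverage the log2 differences from ethanol were 0.13 with A41, 0.04 with A98 and -0.04 with A80, and the A41 and A98 libraries overlapped ethanol.

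**Figure D5:**
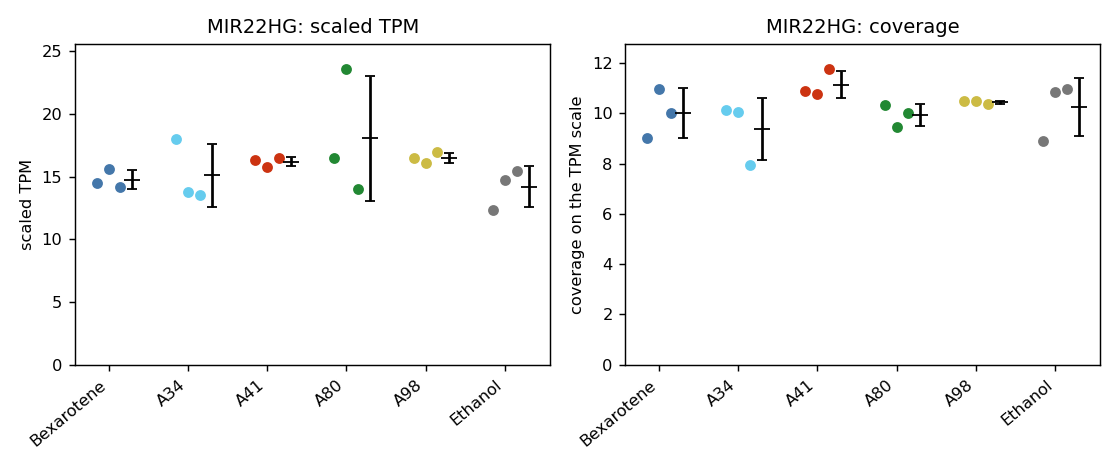
MIR22HG in the 18 libraries, as scaled TPM on the left and as coverage put on the TPM scale on the right, with points for libraries and black marks for the mean and SD of 3. A80 replicate 2 has the highest TPM, 23.6, and a coverage of 9.44, below most libraries.

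TUG1 (chromosome 22, 30969245 to 30979395, plus strand) varied least of the 9, with a coefficient of variation of 5.31% over the 18 libraries, against a median of 18.1% for all tested genes and 42.3% for the 2211 tested long noncoding genes. Its lowest library was A98 replicate 3, at 19.2 scaled TPM, and its highest A41 replicate 1, at 23.9. The log2 differences from ethanol ranged from -0.03 with A98 to 0.09 with A80, and the intervals together ran from -0.19 to 0.24, so a change of 0.25 or more in log2 lay outside all 5.

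PVT1 (chromosome 8, 127794526 to 128187101, plus strand), a noncoding neighbour of the MYC oncogene, had its highest library in ethanol, replicate 1 at 24.3 scaled TPM, and its lowest in A41, replicate 2 at 14.8. The group means were 17.6 ± 2.23 in bexarotene, 19.2 ± 2.77 in A34, 18.5 ± 3.94 in A41, 19.3 ± 3.19 in A80 and 19.8 ± 1.79 in A98, against 21.7 ± 2.94 in ethanol (SD, n = 3 each). All 5 differences were negative, from -0.28 to -0.12, and every group overlapped ethanol. The lowest adjusted p was 0.654. Exons cover 1.40% of this gene's span, and TPM was 162 times the coverage at the median, so its coverage averages over a span that is mostly intron.

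The imprinted genes were the least expressed of the 9. MEG3 (chromosome 14, 100779410 to 100861031, plus strand), a maternally expressed RNA of the DLK1 locus, had 2.38, 2.64 and 3.68 scaled TPM in bexarotene cells, 3.63, 2.03 and 2.07 in A34 cells, and 2.59, 2.26 and 3.34 in A41 cells. It had 0.764, 2.26 and 1.87 scaled TPM in A80 cells and 3.97, 2.53 and 0.913 in A98 cells, against 2.00, 2.39 and 1.82 in ethanol cells. Its A98 libraries spanned the highest and nearly the lowest values of the series, and the intervals against ethanol ran from -0.91 to 0.98. The A80 libraries were all below bexarotene, by a log2 difference of -0.60 (adjusted p = 0.701), as were those of 5.98% of all genes. Without A80 replicate 1 that difference was -0.34.

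H19 (chromosome 11, 1995176 to 2001470, minus strand), a maternally expressed RNA that hosts miR-675, was listed at 0 in A98 replicates 2 and 3 and in ethanol replicate 2. The highest value was 0.974 scaled TPM, in A98 replicate 1, and the next was 0.327, in ethanol replicate 1. The other 13 libraries lay between 0.0166 and 0.0868 scaled TPM, and no fold change is given.

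Between the rexinoids 0 of 80 tests of the 8 genes passed over 10 pairs of compounds, and the 4 with an unadjusted p under 0.05 were all LINC00339 (A41 against bexarotene, A34 against A41, A41 against A80 and A80 against A98). The share of all genes that passed was 0% for A34 and for A80 against bexarotene, 0.115% for A41 and 0.00547% for A98 against bexarotene. It was 0.0712% for A34 against A41, 0% for A34 against A80, 0.00547% for A34 against A98, 0.126% for A41 against A80, 0.131% for A41 against A98 and 0.00547% for A80 against A98. An unadjusted p under 0.05 was found over all genes in 5.2% for A34, 6.23% for A41, 6.06% for A80 and 6.86% for A98 against bexarotene. It was found in 7.88% for A34 against A41, 3.55% for A34 against A80, 4.51% for A34 against A98, 7.95% for A41 against A80, 7.15% for A41 against A98 and 4.04% for A80 against A98. In the F test among the 5 rexinoids 0 of 8 passed, against 0.0657% of all genes, and 1 of 8 had an unadjusted p under 0.05, against 6.32%. The widest intervals between compounds, -1.25 to 1.19 for MEG3, leave large differences possible, whereas those of TUG1 ran from -0.22 to 0.28. By the replicate number of the titles 0 of 8 differed, against 1.01% of all genes, and 1 of 8, PVT1, had an unadjusted p under 0.05, against 11.6%.

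Lists of related genes were tested in the same fit. Among snoRNA host genes other than GAS5, 0 of 21 passed with any rexinoid against ethanol in limma, and 1 to 7 had an unadjusted p under 0.05. The highest count, 7 of 21, was for A34, against 10.7% of all genes. Their median log2 difference was negative with all 5 rexinoids, from -0.18 with A34 to -0.03 with bexarotene, against medians of -0.01 to 0.00 over all genes, in comparisons that share the ethanol libraries. Among microRNA host genes 0 of 11 passed, with 1 to 4 at an unadjusted p under 0.05, the 4 for A80, against 9.41% of all genes. Among nuclear speckle proteins 0 of 9 passed, and among 14 entries for paraspeckle proteins 0 passed, with at most 2 at an unadjusted p under 0.05 in each. Of 9 other genes of the imprinted loci, 2 were tested and 0 passed. Over all genes 0.0328% to 0.755% passed in these 5 comparisons and 5.75% to 10.7% had an unadjusted p under 0.05.

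Among 19 other long noncoding RNAs tested, 1, OLMALINC, passed with bexarotene, A34 and A41. Over all genes 0.0547%, 0.0821% and 0.755% passed in these comparisons. The list that holds OLMALINC was chosen with earlier results of these data known, so its p-values are not independent support. OLMALINC, which lies beside SCD, rose to 6.15 ± 0.181 scaled TPM with bexarotene, 8.03 ± 1.77 with A34 and 6.54 ± 0.915 with A41, against 2.03 ± 0.559 with ethanol (SD, n = 3 each). Its log2 differences were 1.25, 1.57 and 1.32 (adjusted p = 0.00939, 0.000555 and 0.00101). With A80 and A98 they were 0.95 and 0.98 (adjusted p = 0.097 and 0.0986). Over all 2211 long noncoding genes tested, 7 rose and 1 fell with A41, where 0.755% of all genes passed. With the other 4 rexinoids 0 fell. Counts of the genes that rose with those 4 are not given, because LINC00339, which was selected on this contrast, could be among them. It is not among the 7 that rose with A41. HOTAIRM1, a noncoding RNA of the HOXA cluster that was chosen here after its values were seen, rose to 39.9 ± 2.66 scaled TPM with A41, against 23.7 ± 1.56 with ethanol (log2 difference 0.73, adjusted p = 0.00364), while its differences with the other 4 rexinoids were -0.04 to 0.09.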

How the data were processed

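Total RNA of the 18 U87 samples was depleted of ribosomal RNA with probes and sequenced as paired reads, per the labels' protocols. STAR, StringTie and MultiQC were used with GRCh38, per the submitters' processing notes; the sources used here do not give versions, annotation release or strand handling. Each deposited table gave TPM, a share of the library that the authors computed, FPKM beside it, and coverage, the mean signal per base of a gene, per the file headers. The authors deposited FPKM scaled to mapped fragments, and its ratio to coverage gave the aligned bases.

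Scaled TPM is TPM over a library factor, the median ratio across 16349 genes (0.417 to 1.20). A gene entered the tests if 3 or more libraries reached 1 TPM, which left 18269. A linear model with 6 groups (12 residual degrees of freedom) and a mean trend was fitted by limma 3.58.1 (R 4.3.3) to log2(scaled TPM + 1), a scale that understates the change of low genes. Adjusted p-values of genes come from that two-sided test after Benjamini-Hochberg correction across the 18269 genes, and 0.05 was the threshold; intervals are 95%. Correlations between the 8 genes used 100000 permutations, two-sided. Coverage was put on the TPM scale per library. The steps were tested on simulated data. The 9 genes, lists and tests were chosen with earlier results of these data known. Named were the 9 genes, the genes most like them (at least 2 scaled TPM and 300 bases), up to 4 genes past the threshold per list and neighbours within 100 kb past it. Alternatives were pseudocount, filter, scaling, replicate blocks, libraries left out, the groups in the fit and coverage in place of TPM, the last chosen after the data were seen.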

Additional observations from a re-analysis of the deposited data

How the results depend on the processing

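The count of 0 among the tested genes was the same under every alternative, with 0 of 1725 values past the threshold and a lowest adjusted p of 0.127. Of these values 184 changed sign, all of them differences that had not passed. Few of all genes passed under the alternatives either, so this count is near the background. TPM as deposited gave 0 of 18269 with bexarotene, A34 and A80 against ethanol. The highest count was 197 of 18269, with A41 against ethanol and a replicate block from the titles. Counts over all genes with 1 library left out are not given. For LINC00339 against ethanol, leaving out 1 library gave log2 differences of 0.70 to 0.80 with bexarotene, 0.71 to 0.85 with A34, 0.34 to 0.54 with A41, 0.79 to 0.92 with A80 and 0.54 to 0.64 with A98. Without the 3 libraries rich in ribosomal RNA the values were 0.71, 0.78, 0.47, 0.83 and 0.58 in the same order. TPM as deposited gave 0.17 with A41, where the median of all genes was shifted by -0.27, and 0.45 relative to that median. The cause of the other movements was not tested. MEG3 had the widest intervals, and H19 was too low to be tested.

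The main fit had no replicate block. For libraries to count as paired, every same-numbered pair had to have a correlation of deviations above 0.1. Of these pairs 11 of 45 had one (lowest -0.356), against 7 of 90 with different numbers, and 10 of 18 libraries correlated best with their own number. The rule is strict, and missing it does not show that libraries with the same number were unrelated. With a replicate block from the titles, 0 of the 7 or 8 genes passed in any comparison, while the count over all genes became 166 in place of 15 with A34 and 117 in place of 8 with A80, and with a block from the file numbers 57 and 51. By replicate number PVT1 had the lowest p of the 8 (0.00567, adjusted p = 0.169). Over all genes, TPM as deposited gave 4 calls in place of 138 with A41, the groups compared alone 33, and leaving out the 3 libraries rich in ribosomal RNA 48.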
